A study of Mus musculus with 4 samples.

Results

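The genes of oculomotor and cholinergic neurons (Phox2a, Isl1 and Chat), of the red nucleus (Pou4f1), of the progenitors that give rise to both (Nkx6-1 and Nkx6-2) and of glutamatergic neurons (Slc17a6) were read in 4 sorted mouse populations. They are 7 of 19938 genes that the array pairs with a transcript cluster of their own, and each of the 7 has 1 such cluster. The genes were chosen by name as markers of neurons that are born beside midbrain dopaminergic (mDA) neurons. The first pair of populations came from ESCs of the 129SVEV strain that carry GFP at the Lmx1a locus, differentiated as floating aggregates with added SHH and FGF8b. On day 9, LMX1A::GFP+ cells were sorted by CORIN into ESC CORIN+ and ESC CORIN- cells, so both carry the reporter and passed the GFP gate. The second pair was sorted as VM CORIN+ and VM CORIN- cells from the ventral midbrain (VM) of C57BL/6N fetuses at E11.5, which carry no reporter and were gated on CORIN alone. Each population had 1 array, so differences could not be set against replicate error and were not tested. The ESC-derived cells came from 1 knock-in line, and the number of cultures or embryos behind an array is not given in the sources used here.

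CORIN is a surface protease of the floor plate, the ventral midline where mDA neurons are born. Lateral to it, SHH secreted by the midline induces the homeodomain factors NKX6-1 and NKX6-2 in dividing progenitors of the basal plate. The oculomotor nucleus, whose motor neurons move the eye and release acetylcholine, and the red nucleus, whose glutamatergic neurons project to the spinal cord, arise from this territory. PHOX2A is required for oculomotor neurons, ISL1 is a LIM homeodomain factor of motor neurons, and POU4F1 (BRN3A) marks neurons of the red nucleus and of sensory ganglia. SLC17A6 (VGLUT2) loads glutamate into synaptic vesicles, and CHAT makes acetylcholine.

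The signal of Corin, whose product the antibody binds, was 13.10 for ESC CORIN+, 11.13 for ESC CORIN-, 11.43 for VM CORIN+ and 7.28 for VM CORIN-, on the log2 scale used throughout. The floor plate factor Foxa2 had signals from 10.31 to 11.46 over the 4 arrays. No detection calls were used, so a low signal is not read as absence. As a reference, 13 genes of tissues other than brain, such as Alb and Ins2, differed by -0.36 to 0.26 in the ESC-derived pair, by -0.18 to 0.076 in the fetal pair, by -0.25 to 0.32 between both CORIN+ arrays and by -0.28 to 0.15 between both CORIN- arrays. Their signals spanned 0.076 to 0.38 over the 4 arrays. This spread is over genes and not over replicate arrays. Over all 28856 clusters, the spread of differences, as the median absolute deviation scaled to an SD, was 0.146 for the ESC-derived and 0.162 for the fetal pair, 0.245 between both CORIN+ arrays and 0.259 between both CORIN- arrays. Of these clusters, 0.353% were at least 2-fold higher and 0.468% lower in the ESC-derived pair, and 2.67% and 0.672% in the fetal pair. The shares were 2.70% and 3.86% between both CORIN+ arrays and 3.94% and 3.53% between both CORIN- arrays. Each count of list genes below is to be read beside these shares.

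Among the genes of oculomotor neurons, Isl1 differed most between the populations, Phox2a differed by more than the reference genes within both pairs but not between origins, and Chat was flat. The log2 signal of Isl1 was 7.31 for ESC CORIN+, 7.95 for ESC CORIN-, 8.64 for VM CORIN+ and 9.70 for VM CORIN-. It was lower in the CORIN+ array of each pair, and both fetal arrays lay above both ESC-derived arrays, with each step in this order larger than any difference of the reference genes. Isl1 was 2.10-fold lower in VM CORIN+ than in VM CORIN- cells, which ranked 169th from the lowest of 28856 clusters. In the ESC-derived pair it was 1.56-fold lower in ESC CORIN+ cells. Both signals of that pair were within the levels of the reference genes, which reached 8.31, so a larger drop could hardly show. Between origins it was 2.51-fold lower in ESC-derived than in fetal CORIN+ cells and 3.38-fold lower among CORIN- cells. The 250 bases before its start site, chr13:116309689-116309938 of GRCm38.p6 on the minus strand (RefSeq), are shown because Isl1 had the lowest difference of the 7 in the fetal pair, with its only E-box (CANNTG, the site of proneural factors) in capitals.
Isl1: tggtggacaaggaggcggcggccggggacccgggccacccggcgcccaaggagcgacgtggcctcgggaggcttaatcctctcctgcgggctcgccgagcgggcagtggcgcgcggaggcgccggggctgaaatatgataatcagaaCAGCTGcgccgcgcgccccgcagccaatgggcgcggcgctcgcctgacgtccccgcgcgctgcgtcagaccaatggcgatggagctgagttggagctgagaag
The window holds 33 CpG dinucleotides against a median of 6 over 32851 mouse start sites, and 66.2% of those windows hold an E-box. The match is a description of the sequence and not of binding.

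Phox2a had log2 signals of 7.49 for ESC CORIN+, 8.16 for ESC CORIN-, 7.73 for VM CORIN+ and 8.04 for VM CORIN-. Both CORIN- arrays were above both CORIN+ arrays, and the order did not follow the origin of the cells. The difference was -0.67 in the ESC-derived pair (1.59-fold lower in ESC CORIN+ cells) and -0.32 in the fetal pair, each below all 13 reference genes of its comparison. Between origins Phox2a differed by -0.23 in CORIN+ and 0.11 in CORIN- cells, each inside the range of the reference genes in that comparison.

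Chat had log2 signals of 6.45, 6.43, 6.52 and 6.55 in the same order of arrays. The span of 0.12 lay inside the range of the reference genes, and no difference of Chat exceeded 0.12 in size. The vesicular acetylcholine transporter gene Slc18a3, which lies within Chat on the same strand, had signals from 7.84 to 7.98 and was as flat. The choline transporter gene Slc5a7, by contrast, had signals of 6.51, 6.88, 7.96 and 7.20, with its highest value in VM CORIN+ cells. The 3 genes thus did not share an order, and the 2 that define cholinergic neurons most directly marked out none of the 4 arrays. The motor neuron progenitor gene Olig2 was 2.79-fold and 2.09-fold lower in the CORIN+ array of the ESC-derived and of the fetal pair. The signalling regulator Rgs4 was 2.12-fold lower in the fetal pair, with a log2 difference of -0.16 in the ESC-derived pair. Isl2, the paralog of Isl1, differed by -0.57 and -0.23 in these pairs, and the cardiac and motor neuron factor Tbx20 by -0.43 and 0.14. Of 14 measured genes of the oculomotor and cholinergic list, 1 was past 2-fold downward between the ESC-derived arrays and 3 between the fetal arrays, with none upward and medians of -0.38 and -0.23. Between origins, 1 was past 2-fold upward and 4 downward among CORIN+ cells, and 1 upward and 3 downward among CORIN- cells, with medians of -0.10 and -0.03.

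**Figure D1:**
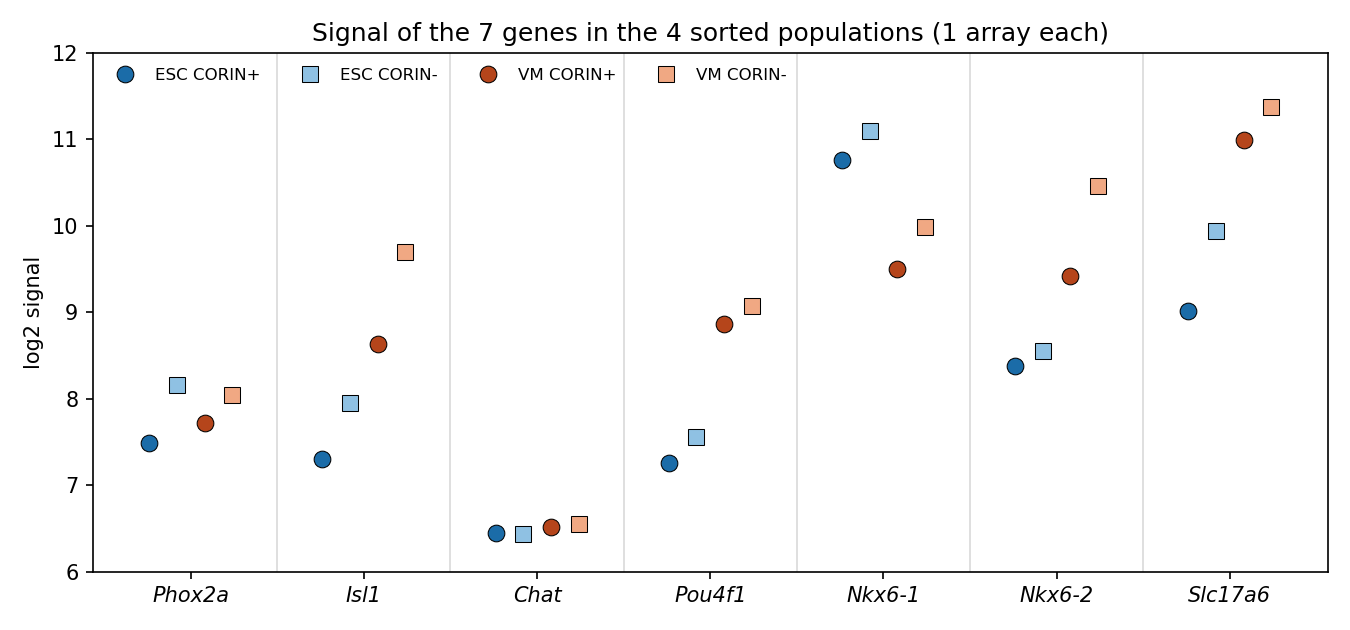
Log2 signal (vertical axis) of each of the 7 genes in the 4 populations, with 1 array per population, circles for CORIN+ and squares for CORIN-, blue for ESC-derived and red for fetal cells. Isl1, Pou4f1, Nkx6-2 and Slc17a6 lie higher in both fetal arrays, Nkx6-1 lies higher in both ESC-derived arrays, and Chat spans 0.12. Heights are comparable within a gene and not between genes.

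Pou4f1, the gene of the red nucleus, differed more between the origins of the cells than within either pair. Its log2 signal was 7.26 for ESC CORIN+, 7.56 for ESC CORIN-, 8.86 for VM CORIN+ and 9.07 for VM CORIN-. The fetal arrays were higher in both comparisons of origin, 3.04-fold among CORIN+ cells and 2.84-fold among CORIN- cells. It differed by -0.31 in the ESC-derived pair, inside the range of the reference genes there, and in the fetal pair by -0.21, below all 13 of them. Both ESC-derived signals were within the levels of the reference genes, which reached 8.31, so a drop in that pair could hardly show. Its paralog Pou4f3 had signals from 6.89 to 7.24, and Pou4f2 was not analysed here. Emx2, a homeobox gene of the same list that is best known from the forebrain, had signals of 6.82, 7.81, 9.61 and 10.76, the same order of arrays as Pou4f1. Sim1 and Foxp2 of the same list had signals from 10.44 to 11.75 and from 10.90 to 11.51. Sim1 was higher in the ESC-derived arrays, by 0.75 among CORIN+ and 0.46 among CORIN- cells, so the genes of this list did not share an order over the arrays. Of the 5 measured genes, none passed 2-fold in the ESC-derived pair and Emx2 alone did in the fetal pair (-1.15). Emx2 and Pou4f1 were past 2-fold downward in both comparisons of origin.

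The paralogs Nkx6-1 and Nkx6-2 ran opposite ways between culture and fetal tissue. The log2 signal of Nkx6-1 was 10.76 for ESC CORIN+, 11.10 for ESC CORIN-, 9.50 for VM CORIN+ and 9.98 for VM CORIN-. It was the only gene of the 7 at least 2-fold higher in the ESC-derived arrays, 2.39-fold among CORIN+ and 2.17-fold among CORIN- cells. Nkx6-2 had signals of 8.38, 8.55, 9.42 and 10.47 in the same order and was 2.05-fold and 3.77-fold lower in the ESC-derived arrays. The difference of Nkx6-1 exceeded that of Nkx6-2 by 2.29 on the log2 scale among CORIN+ cells and by 3.03 among CORIN- cells. Within the fetal pair, Nkx6-2 was 2.07-fold lower in CORIN+ cells and ranked 177th from the lowest, while Nkx6-1 was at 1.39-fold lower. In the ESC-derived pair, Nkx6-1 and Nkx6-2 were at 1.27-fold and 1.12-fold lower in ESC CORIN+ cells. The pair difference of Nkx6-2 was 0.88 closer to 0 in the ESC-derived than in the fetal pair, which was not tested. Only the ESC-derived cells passed the GFP gate, so the pairs are not the same contrast. Nkx6-3, the remaining paralog, had signals from 7.13 to 7.29 and a span of 0.15.

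The 250 bases before the start sites of both genes are shown because the paralogs differ in direction. They lie at chr5:101664712-101664961 and chr7:139582798-139583047 of GRCm38.p6, both on the minus strand (RefSeq), with E-boxes in capitals.
Nkx6-1: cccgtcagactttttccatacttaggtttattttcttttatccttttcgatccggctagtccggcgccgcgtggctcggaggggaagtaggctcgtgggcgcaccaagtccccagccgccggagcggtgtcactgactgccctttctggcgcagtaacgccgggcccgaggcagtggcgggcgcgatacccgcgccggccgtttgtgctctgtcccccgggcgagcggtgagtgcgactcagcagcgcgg
Nkx6-2: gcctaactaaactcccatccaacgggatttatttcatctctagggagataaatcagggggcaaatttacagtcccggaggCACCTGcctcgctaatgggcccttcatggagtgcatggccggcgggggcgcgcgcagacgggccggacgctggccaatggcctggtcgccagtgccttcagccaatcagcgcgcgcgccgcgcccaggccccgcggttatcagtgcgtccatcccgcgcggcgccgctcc
Both windows hold 65.2% G and C, with 30 CpG dinucleotides before Nkx6-1 and 26 before Nkx6-2. The Nkx6-2 window holds 1 E-box and the Nkx6-1 window none. Neither window holds the homeodomain core TAATTA, the forkhead site TGTTTAC or the GLI site TGGGTGGTC on either strand, which occur in 4.84%, 3.17% and 0.225% of all such windows. The absence says only that these letters are not in these 250 bases.

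Other genes of the ventral midbrain went either way with origin. Shh, Foxa1 and Lmx1b, which mark the floor plate, had higher signals in the ESC-derived arrays than in the fetal ones, by 1.74, 1.30 and 1.36 on the log2 scale among CORIN+ cells and by 1.93, 1.39 and 2.16 among CORIN- cells. Nkx2-2, Helt and Irx3, genes of more lateral domains, were lower by 1.28, 1.40 and 1.67 among CORIN+ cells and by 2.48, 3.10 and 0.85 among CORIN- cells. Of other genes in the NKX6 list, Sim1 was higher in the ESC-derived arrays, by 0.75 and 0.46 in these comparisons. Nkx2-9, a gene beside the floor plate, differed by -0.15 and -1.56. Nkx6-1 differed in the direction of Shh, Foxa1 and Lmx1b, and Nkx6-2 in that of Nkx2-2, Helt and Irx3. These genes were named with their values known, so the match follows in part from the choice. A split into midline and lateral genes was not drawn over the whole list. Over the 13 measured genes of the list, each comparison of origin had 4 past 2-fold upward and 4 past 2-fold downward, and the medians were 0.09 and -0.06. In the fetal pair Helt (-1.44), Nkx2-2 (-1.34) and Nkx6-2 (-1.05) were at least 2-fold lower in CORIN+ cells and the other 10 lay under 2-fold. In the ESC-derived pair Irx3 (-1.01) alone passed 2-fold.

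Slc17a6, the glutamatergic gene, had the largest difference of the 7 in the ESC-derived pair and between both CORIN+ arrays. Its log2 signal was 9.02 for ESC CORIN+, 9.94 for ESC CORIN-, 11.00 for VM CORIN+ and 11.38 for VM CORIN-. It was lower in the CORIN+ array of each pair, and both fetal arrays lay above both ESC-derived arrays. In the ESC-derived pair it was 1.90-fold lower for ESC CORIN+, just short of 2-fold, and ranked 172nd from the lowest of all clusters. In the fetal pair it was 1.30-fold lower in CORIN+ cells. Between origins it was 3.94-fold lower in ESC-derived than in fetal CORIN+ cells and 2.70-fold lower among CORIN- cells. The window before its first listed start site, chr7:51621580-51621829 on the plus strand (GRCm38.p6, RefSeq), is shown for contrast with Isl1 and the NKX6 genes, with its E-box in capitals.
Slc17a6: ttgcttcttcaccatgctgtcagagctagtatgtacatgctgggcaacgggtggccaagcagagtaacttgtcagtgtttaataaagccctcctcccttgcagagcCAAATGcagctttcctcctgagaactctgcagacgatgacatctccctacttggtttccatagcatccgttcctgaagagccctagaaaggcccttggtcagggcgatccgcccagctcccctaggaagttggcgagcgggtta
It holds 53.2% G and C and 7 CpG dinucleotides. Its second listed start site has a window with 3 CpG dinucleotides, 2 E-boxes and 1 TAATTA match.

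The other vesicular glutamate transporters shared this pattern only in part. Slc17a7 (VGLUT1) had signals from 7.33 to 7.86 and was highest in ESC CORIN- cells. It differed by -0.48 in the ESC-derived and -0.11 in the fetal pair. Slc17a8 (VGLUT3) had signals of 7.19, 6.98, 7.64 and 8.01 in the same order of arrays, so both fetal arrays lay above both ESC-derived arrays. It was lower in VM CORIN+ than in VM CORIN- cells (-0.37) but higher in ESC CORIN+ than in ESC CORIN- cells (0.21). Of 12 measured genes of the glutamatergic list, 4 were at least 2-fold lower in the CORIN+ array of the ESC-derived pair with none past 2-fold upward. Their median was -0.71 and that of all clusters 0.0024. The 4 were the homeobox genes Barhl2 (-2.55) and Barhl1 (-2.14) and the proneural genes Neurog1 (-1.49) and Neurod4 (-1.43). None of the 12 passed 2-fold in the fetal pair, where their median was -0.43 and that of all clusters -0.037. Between origins, 8 of 12 had 2-fold or more below the fetal signal in CORIN+ cells and 4 of 12 did in CORIN- cells. Lhx9, a LIM homeodomain gene of dorsal and diencephalic glutamatergic neurons, differed most, by -3.86 and -4.07.

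Counted over the 7 genes, the pairs held few differences of 2-fold and the comparisons of origin held more. In the ESC-derived pair, 0 of 7 reached 2-fold in either direction, beside 0.821% of all clusters (0.353% higher and 0.468% lower). For 6 of the 7 the CORIN+ array gave the lower value, and the median difference was -0.34. In the fetal pair, Isl1 and Nkx6-2 were at least 2-fold lower in CORIN+ cells, 2 of 7 beside 0.672% of all clusters in that direction. None of the 7 was past 2-fold upward, beside 2.67%, and 3.34% of clusters passed in either direction. All 7 had a negative difference there, from -1.07 to -0.030, with a median of -0.38. The values of Isl1 (2.10-fold) and Nkx6-2 (2.07-fold) lie just past the threshold, and their calls rest on it. Between both CORIN+ arrays, Isl1, Pou4f1, Nkx6-2 and Slc17a6 lay 2-fold or more below in ESC-derived cells, 4 of 7 beside 3.86% of clusters, and Nkx6-1 was at least 2-fold higher, 1 of 7 beside 2.70%, which makes 5 of 7 beside 6.56% in either direction. Nkx6-2 no longer passed when 32 was added to the linear signal (-0.97), which left 4 of 7 past 2-fold in either direction. Between both CORIN- arrays, the same 4 genes were lower, beside 3.53% of clusters, and Nkx6-1 was higher, beside 3.94%, with 5 of 7 beside 7.47% in either direction. The comparisons of origin use the same 4 arrays as the pairs and are not independent of them. Strain, reporter, gate, culture and developmental stage differ together between the origins and cannot be told apart. The same holds wherever the ESC-derived pair is set beside the fetal pair.

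**Figure D2:**
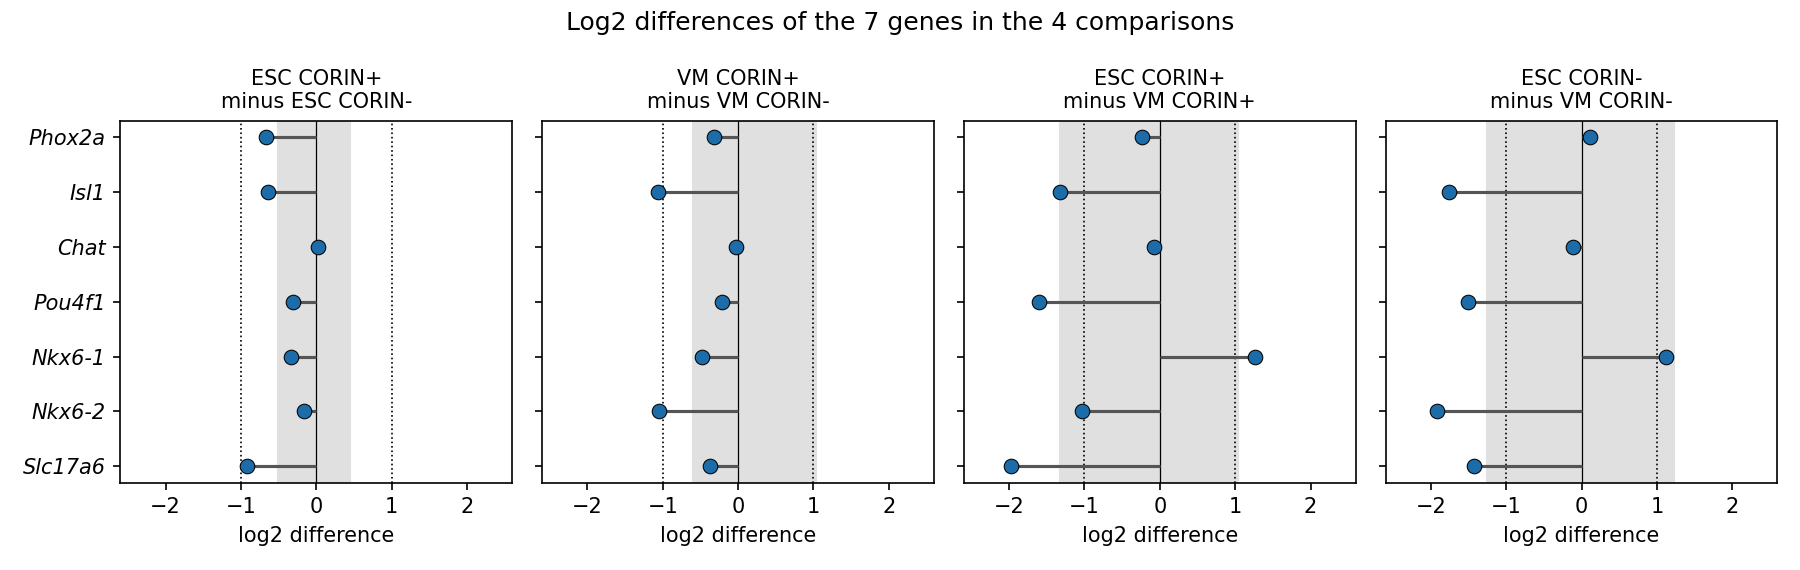
Log2 difference (horizontal axis) of each of the 7 genes in the 4 comparisons named above the panels, with 1 array per population. Grey bands hold the central 95% of all clusters and dotted lines mark 2-fold. In the first panel no gene passes 2-fold, in the second Isl1 and Nkx6-2 do, and in the last 2 Nkx6-1 lies to the right of zero and Isl1, Pou4f1, Nkx6-2 and Slc17a6 to the left.

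The neuronal genes of the 7 were read beside genes that all neurons share. In sorted bulk RNA, fewer cells of a type and less RNA per cell cannot be told apart. All 12 pan-neuronal genes, such as Tubb3, Dcx and Stmn2, were lower in the CORIN+ array of both pairs and lower in ESC-derived than in fetal cells in both comparisons of origin. Their medians were -0.63 in the ESC-derived pair, -0.52 in the fetal pair, -1.75 between both CORIN+ arrays and -1.53 between both CORIN- arrays. The log2 of their summed linear signal was 13.85 for ESC CORIN+, 14.43 for ESC CORIN-, 15.44 for VM CORIN+ and 15.95 for VM CORIN-. Slc17a6 differed from their median by -0.22 and 0.10 in the comparisons of origin, Pou4f1 by 0.15 and 0.02 and Isl1 by 0.43 and -0.23. The values of these genes lay inside the range of the 12 in both comparisons. Phox2a lay above all 12 pan-neuronal genes in both comparisons of origin. Its signals, from 7.49 to 8.16, were within the levels of the reference genes, which reached 8.31, so a drop could hardly show. In the fetal pair, Isl1 (-1.07) lay below each of the 12, which ranged from -0.75 to -0.26, and Pou4f1 (-0.21) above each of them. In the ESC-derived pair, Isl1, Phox2a, Pou4f1 and Slc17a6 all lay inside the range from -1.02 to -0.10. The part of neuron content in these differences was not tested.

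The GABAergic genes of the midbrain, whose neurons arise beside the red nucleus, had a larger median difference in the fetal pair, while Slc17a6 differed more in the ESC-derived pair. All 9, among them Gad2 and Gata3, were at least 2-fold lower in VM CORIN+ than in VM CORIN- cells, with a median of -1.58, and none reached 2-fold in the ESC-derived pair, with a median of -0.04. The 9 did not act alike in the ESC-derived pair, where Tal2 (-0.98) and Gata3 (-0.78) lay near Slc17a6. Gad2 had signals of 6.43 and 6.25 in that pair and Slc32a1 7.24 and 7.02, so dim that a drop could hardly show. Helt, Gad1, Sox14, Gata2 and Tal1 had signals from 6.62 to 7.94 there, also within the levels of the reference genes, which reached 8.31. The GABAergic median of that pair thus rests mostly on dim genes. Slc17a6 was at -0.38 in the fetal and -0.92 in the ESC-derived pair, and whether the genes differ in this was not tested. The pairs were gated differently and are unlike contrasts. Between origins the GABAergic median was -1.40 among CORIN+ and -3.10 among CORIN- cells.

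**Figure D3:**
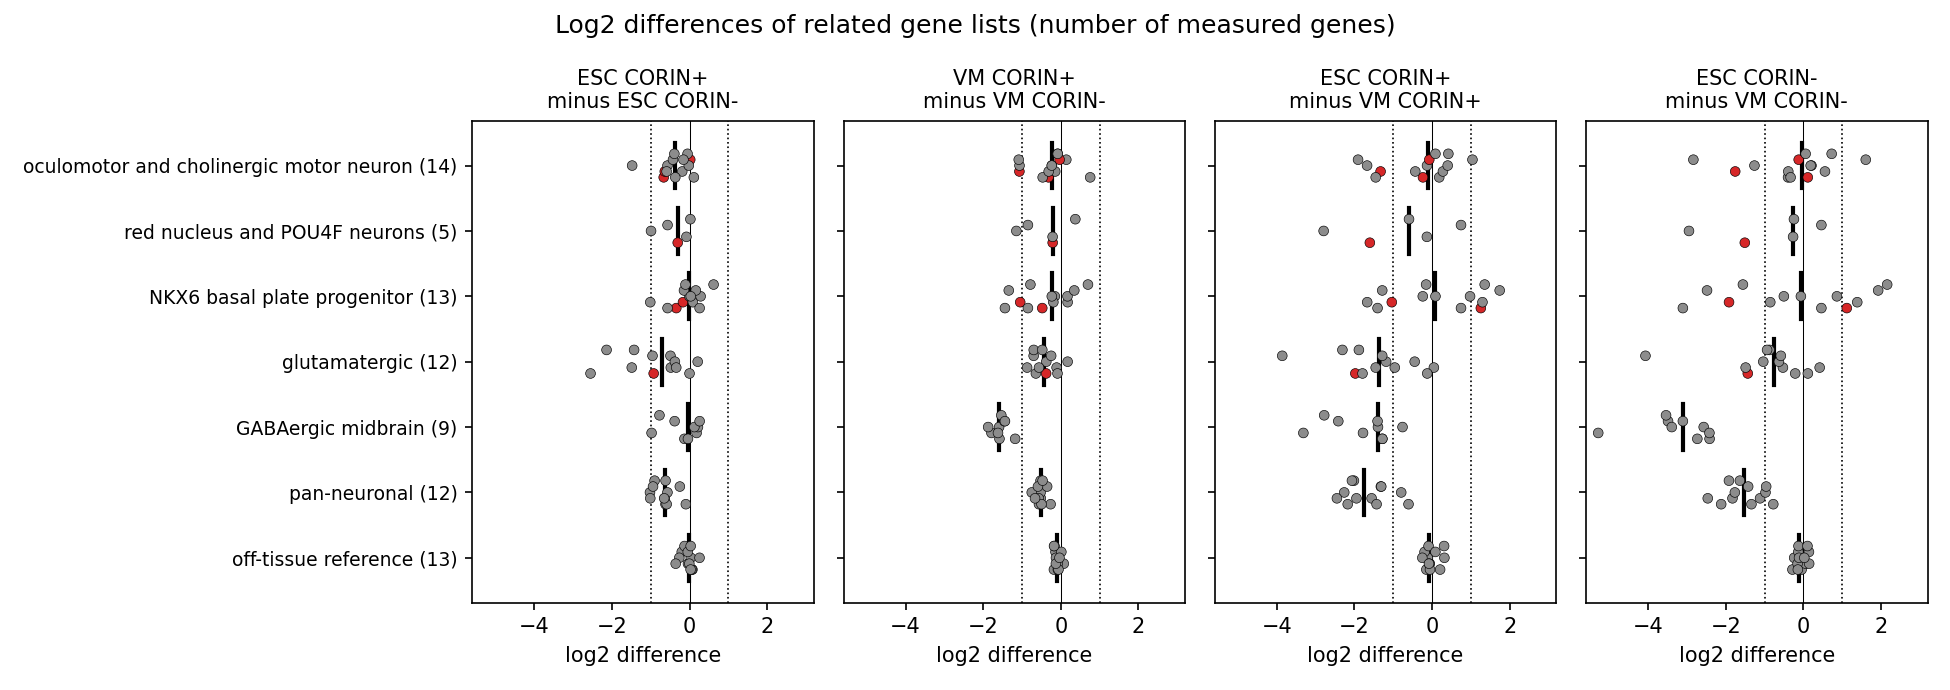
Log2 difference (horizontal axis) of each measured gene of 7 lists in the 4 comparisons named above the panels, with gene numbers in parentheses and 1 array for each population. Red points are genes among the 7, grey points other genes, black bars list medians, and dotted lines mark 2-fold. The off-tissue genes lie within 0.36 of zero, while the pan-neuronal bars lie at -0.63, -0.52, -1.75 and -1.53 from left to right.

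Markers of other cells moved with the same arrays. Of 8 macrophage genes, 7 were at least 2-fold higher in VM CORIN+ than in VM CORIN- cells, and the log2 of their summed signal was 13.55 there against 9.68 to 9.78 in the other 3 arrays. All 10 mesenchyme genes were at least 2-fold higher in the same array, with a summed signal of 14.21 against 11.71 to 12.35. Between the ESC-derived arrays 4 of these 10 were at least 2-fold lower in CORIN+ cells, with a median of -0.75, and the summed signal was 11.71 in ESC CORIN+ and 12.35 in ESC CORIN- cells. Erythroid genes, 3 of 5, lay 2-fold or more above VM CORIN- in VM CORIN+ cells, with a summed signal of 13.73 against 9.13 to 11.78. The signal of 5 pluripotency genes out of 6 was at least 2-fold lower in ESC CORIN+ than in ESC CORIN- cells, with a summed signal of 11.98 in the latter and 9.19 to 9.43 elsewhere. Of 9 genes of sensory ganglia, which also hold POU4F1 and ISL1 neurons, Runx1 (2.02), which blood cells also express, alone passed 2-fold in the fetal pair and none did in the ESC-derived pair. The sensory genes Avil and P2rx3 differed by -0.02 and -0.49 in the fetal pair. Between origins, 1 of the 9 was past 2-fold upward and 2 downward among CORIN+ cells, and 2 upward and 1 downward among CORIN- cells. Among CORIN+ and CORIN- cells in turn, Ntrk2 differed by -1.54 and -2.26, Eya2 by 1.26 and 2.03 and Runx1 by -1.11 and 1.48. None of 7 hindbrain and serotonergic genes and none of 11 genes of dividing progenitors reached 2-fold in either pair, and the latter had medians of 0.08 and 0.22. The part of these cells in the differences of the 7 genes was not tested.

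The 7 genes were last compared by the shape of their signal over the 4 arrays, as the Euclidean distance between log2 signals after each gene was centred on its own mean. Among the 7, Isl1 and Nkx6-2 were closest, at 0.34, followed by Pou4f1 and Slc17a6 at 0.48. Nkx6-1 lay 2.70 to 2.92 from the other 4 genes that span at least 1. Among 2726 genes whose signal spans at least 1 on the log2 scale, those closest to Isl1 were Svop (0.065), St8sia3 (0.097) and Cacna1b (0.11), and those closest to Slc17a6 were Heg1 (0.12), Pcdh9 (0.13) and Crmp1 (0.14). Nkx6-2 was closest to Rab9b (0.12), Mtus2 (0.12) and Tmem169 (0.12), and Pou4f1 to Crnde (0.033), DQ267102 (0.11) and Klf12 (0.15). Nkx6-1 was closest to Rbm11 (0.076), Sel1l3 (0.098) and Ppp1r16b (0.16). A distance over 4 arrays describes these arrays only. Phox2a and Chat, which spanned less than 1, lay 0.52 apart, and no closest genes were sought for them.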

How the data were processed

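Total RNA of 4 sorted populations, grouped by the sample titles, was read on Affymetrix whole-transcript arrays. The authors deposited 1 table of log2 signals, from 4.38 to 14.5, for 28856 transcript clusters, analysed in GeneSpring. How probes were summarized and arrays normalized, and on which build, is not given in the sources used here.

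Differences of log2 signals were taken within each pair (CORIN+ minus CORIN-) and between origins (ESC-derived minus fetal). With 1 array per population no test was run, and the number of arrays limits the precision. Differences of at least 1 in size were counted as 2-fold. Of 21789 clusters with a single symbol, 21698 had a gene identifier found in RefSeq and took its current symbol, whether or not that differed. The cluster with the highest mean signal represented a gene. The 7 genes and 14 related lists (134 of 147 entries measured) were chosen with earlier results of these data known. Named genes were the 7, their close paralogs, up to 4 genes of a list with the largest differences and the 3 closest patterns of each of the 7 that spans at least 1. Other genes given as examples of a list (Avil, P2rx3, Foxa1 and the genes of a list given by range) were chosen after their values were seen. Promoter windows came from RefSeq (GRCm38.p6) and were searched on both strands, where CANNTG and TAATTA read the same on either. Alternatives were quantile normalization, median centring, an offset of 32 on the linear scale, 1.5-fold and 3-fold as the threshold, filters on dim clusters and the mean over a gene's clusters. The code for the counts and the pattern search was checked on simulated data with planted shifts, which says nothing of the spread between arrays. Python 3.11.15, numpy 2.4.6, pandas 2.3.3 and matplotlib 3.10.9 were used.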

Additional observations from a re-analysis of the deposited data

Results flagged for a closer look

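Among the genes of the oculomotor, red nucleus, NKX6 and glutamatergic lists, 5 were flagged by the rule below, none of them among the 7. In these, CORIN+ minus CORIN- ran opposite ways in the ESC-derived and the fetal pair, with both differences larger in size than the scaled median absolute deviation of their comparison. The gap between the pairs, ESC-derived minus fetal, was 1.70 on the log2 scale for Helt, a gene of midbrain GABAergic progenitors (0.26 and -1.44), and 1.40 for Nkx2-9, a gene beside the floor plate (0.62 and -0.78). It was -1.12 for the choline transporter gene Slc5a7 (-0.37 and 0.76), -0.55 for the proneural gene Neurog2 (-0.38 and 0.18) and 0.58 for Slc17a8 (0.21 and -0.37). In the ESC-derived pair the reference genes ranged from -0.36 to 0.26. Slc17a8 lay inside that range there, and Helt, Slc5a7 and Neurog2 lay just past its ends. With 1 array per population, none of these gaps was tested. The pairs also differ in gate, strain and culture, which cannot be told apart.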

How the results depend on the processing

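No paired analysis was possible because each population has 1 array, and no replicate could be left out. All 28 differences of the 7 genes kept their value within the scaled median absolute deviation under quantile normalization and under the offset of 32. Median centring and the mean over a gene's clusters could not have moved them further, so they are no check of these differences. Centring shifts a difference only by the median of all clusters, which was smaller than that deviation in each comparison. Each of the 7 genes has 1 cluster, so the mean over clusters returns the same value. All 56 list medians also kept their value under quantile normalization and under the mean over a gene's clusters. The latter could change only Ina, P2rx3, Pcna and Top2a, the list genes with more than 1 cluster. The number of the 7 genes past the threshold in either direction depended on the threshold in part. At 1.5-fold it was 3 in the ESC-derived pair, where 0 passed 2-fold. It stayed at 2 in the fetal pair, 5 between CORIN+ arrays and 5 between CORIN- arrays. At 3-fold it stayed at 0 in the ESC-derived pair and fell to 0 in the fetal pair, 2 between CORIN+ arrays and 2 between CORIN- arrays. Clusters past 1.5-fold numbered 958, 2182, 4021 and 4554 in the ESC-derived pair, the fetal pair, the CORIN+ and the CORIN- comparison of origin, and 46, 326, 736 and 742 passed 3-fold. The filters on dim clusters and the other alternatives kept the counts of clusters within 1.5 times of the deposited ones. Detection calls, which would bound the dim signals of Chat, were not analysed here.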
